A study of Oryctolagus cuniculus with 3 samples.

Results

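Enzymes of cholesterol synthesis were examined in rabbit embryos that had been stored cold as morulae. The list held 8 enzymes (ACAT2, HMGCS1, IDI1, FDPS, FDFT1, SQLE, LSS and DHCR7). A gene counted as measured if the array had a probe in the deposited value table that the files named by symbol, by transcript or by gene identifier. This held for 5 of the 8, ACAT2, IDI1, FDFT1, SQLE and LSS, with 11 probes, out of 6170 named genes and 22839 probes in all. HMGCS1 and DHCR7 had no probe named in this way and were not analysed here. The probe described as farnesyl diphosphate synthase carries a gene identifier that now belongs to RUSC1, which lies next to FDPS in the RefSeq table, so it was not counted as FDPS.

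Embryos from artificially inseminated does were taken at the morula stage on day 3, stored by slow freezing or by vitrification, placed into recipient does, and collected on day 6, which is 3 days after transfer. Slow freezing cools embryos gradually in cryoprotectant, while vitrification plunges them into liquid nitrogen in a concentrated mixture, here of dimethyl sulphoxide and ethylene glycol. Each of 3 Agilent arrays with 2 colours held RNA of frozen embryos and RNA of vitrified embryos, and the labels call the arrays biological replicates. Frozen embryos were in Cy5 on replicates 1 and 3 and in Cy3 on replicate 2. Every embryo had been stored cold and transferred, and fresh embryos were not analysed here. The sources used here give neither the strain of the does, nor the embryos per sample, nor the slow-freezing solution. RNA came from whole embryos, so fewer cells of a type and less RNA per cell cannot be told apart.

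All values below are log2 ratios of frozen over vitrified embryos unless called signals, so a negative value means a lower signal after slow freezing. The scanner signals of replicates 1 and 3 were also used, and those of replicate 2 were not used here. The direction of the column of replicate 2 is not stated. Its 10 spike-in control probes correlated at -0.996 with those of replicate 1 and at -0.998 with those of replicate 3, while replicates 1 and 3 correlated at 0.993 with each other, so the column was read as frozen over vitrified. This reading is likely rather than stated, and values with the sign of replicate 2 turned are given where they differ in direction. Over all probes the arrays correlated at -0.36 (replicates 1 and 2), -0.01 (1 and 3) and 0.48 (2 and 3).

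Animal cells build cholesterol from acetyl-CoA. The first steps join acetyl units into mevalonate, the next turn mevalonate into 5-carbon isoprenoid units, and the units are then joined to squalene, which is closed into a ring and trimmed to cholesterol. The genes of the pathway share a control in many mammalian cells, since the transcription factor SREBP2 switches them on together when sterols in the endoplasmic reticulum run low. Cholesterol is a membrane component that dividing embryonic cells need, and its precursors also feed protein prenylation, dolichol and ubiquinone.

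The values rest on 60-base probes, of which 7 are printed here. The brightest FDFT1 probe, at base 1008, which gives the value of that gene in the counts and medians, is not among the printed ones. ACAT2 and LSS had the lowest means, the first 3 FDFT1 probes read overlapping stretches of 1 transcript, and SQLE was the only listed enzyme that was lowest on replicate 2 as its column was read, where 0 of the 5 were lowest with the sign turned. Capitals mark bases that a probe shares with another probe of the same gene.
ACAT2, base 993: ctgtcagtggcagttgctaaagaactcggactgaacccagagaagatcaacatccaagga
FDFT1, base 865: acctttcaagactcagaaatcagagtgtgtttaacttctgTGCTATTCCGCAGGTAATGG
FDFT1, base 905: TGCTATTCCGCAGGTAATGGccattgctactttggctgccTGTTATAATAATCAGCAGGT
FDFT1, base 945: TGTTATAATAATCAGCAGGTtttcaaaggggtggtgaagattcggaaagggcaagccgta
SQLE, base 1544: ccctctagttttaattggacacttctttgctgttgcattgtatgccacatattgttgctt
SQLE, base 1664: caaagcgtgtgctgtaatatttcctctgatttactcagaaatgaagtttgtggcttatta
LSS, base 2097: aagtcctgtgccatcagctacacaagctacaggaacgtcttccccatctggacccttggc
Base numbers are the probe's start in the array's target transcript. Each of the 11 probes has at least 1 reading frame without a stop codon over its length. The array design has coordinates of its own on a build that the sources used here do not name. On these the LSS probe lies at chr14:163794876-163794935 on the plus strand and the ACAT2 probe at chr12:149628302-149628740 on the same strand. The ACAT2 probe thus covers 439 genomic bases with 60 bases of transcript, so it spans at least 1 exon junction. The FDFT1 probes at bases 865 and 905 span a junction as well (1786 genomic bases each, minus strand of chromosome 2), while those at bases 945 and 1008 are unbroken in the genome.

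ACAT2 is the cytosolic thiolase that joins 2 acetyl-CoA molecules at the start of the pathway. With the column of replicate 2 as read, it was the only listed enzyme below 0 on all 3 arrays. With that sign turned, ACAT2 was above 0 on replicate 2, and IDI1, FDFT1 and LSS were below 0 on all 3 instead. The log2 ratios of ACAT2 were -0.50, -0.04 and -0.48 on replicates 1, 2 and 3. The processed signal was 17284 and 15622 in frozen embryos on replicates 1 and 3, against 24368 and 21828 in vitrified embryos. Frozen embryos thus had the lower signal on both of these arrays, where they were in Cy5, while replicate 2 was close to 0. The mean was -0.34 ± 0.26 (SD, n = 3), or 1.27-fold lower after slow freezing, with a 95% interval of -0.73 to 0.05. It rests on 1 probe. It did not pass limma's moderated test against 0 (adjusted p = 0.9999 over all probes, unadjusted p = 0.077).

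IDI1 is the isomerase that converts isopentenyl diphosphate to dimethylallyl diphosphate. Its brighter probe had -0.13, 0.05 and -0.28 on replicates 1, 2 and 3, and the other probe -0.12, 0.08 and -0.13. The brighter probe's signal was 3416.5 and 2272 in frozen embryos on replicates 1 and 3, against 3749.9 and 2761 in vitrified embryos. Frozen embryos thus had the lower signal within each of these arrays, where they were in Cy5. The mean was -0.12 ± 0.17 (SD, n = 3), with a 95% interval of -0.47 to 0.23.

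FDFT1, squalene synthase, joins 2 farnesyl diphosphates in the first step that leads only to sterols. Its brightest probe, at base 1008, had -0.66, 0.26 and -0.22 on replicates 1, 2 and 3. Its signal was 2981 and 3222 in frozen embryos on replicates 1 and 3, against 4713 and 3744 in vitrified embryos. Frozen embryos were lower on replicates 1 and 3 and higher on replicate 2. The mean was -0.21 ± 0.46 (SD, n = 3), with a 95% interval of -0.72 to 0.31. The value on replicate 1 carried the mean, which was 0.021 without that array.

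The 4 FDFT1 probes gave the same order of arrays. On replicate 1 they lay between -0.78 and -0.59, on replicate 2 between 0.095 and 0.26, and on replicate 3 between -0.22 and 0.0093. Within 1 array they differed by at most 0.23, whereas each single probe differed by at least 0.69 between arrays. The spread of FDFT1 is thus larger between arrays than between probes on an array. Spots printed more than once differed by an SD of 0.097 (23 probes, replicate 1) and 0.099 (25 probes, replicate 3), and the scanner software's own error of the FDFT1 ratios lay between 0.20 and 0.22.

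SQLE, squalene epoxidase, adds oxygen to squalene and is a slow step of the pathway. Its brightest probe, at base 1664, had 0.14, -0.42 and 0.05 on replicates 1, 2 and 3. Its signal was 5153.5 and 3839 in frozen embryos on replicates 1 and 3, against 4680.5 and 3704 in vitrified embryos. SQLE was therefore lower in frozen embryos on replicate 2 alone by this probe, where the other 4 listed enzymes had their highest value. This holds with the column of replicate 2 as read. With its sign turned, replicate 2 was the highest array for 4 of the 5, SQLE among them. The mean was -0.08 ± 0.30 (SD, n = 3), with a 95% interval of -0.49 to 0.34, and it was 0.20 with the sign of replicate 2 turned.

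The 3 SQLE probes abut each other along 180 bases. From base 1544 to 1604 to 1664 they had -0.05, 0.10 and 0.14 on replicate 1, then -0.25, -0.33 and -0.42 on replicate 2, and -0.14, -0.10 and 0.05 on replicate 3. Replicate 2 was the lowest array for each of the 3 probes as its column was read, and the highest with its sign turned. The probe at base 1544 was below 0 on all 3 arrays as read (-0.15 ± 0.10, SD, n = 3) and the other probes were not. The sign of SQLE on replicates 1 and 3 thus depended on the probe. With the sign of replicate 2 turned, the mean at base 1544 was 0.021.

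LSS, lanosterol synthase, folds oxidised squalene into the first sterol ring system and had the lowest mean of the 5. Its log2 ratios were -1.03, 0.22 and -0.45 on replicates 1, 2 and 3. The signal of its single probe was 167 and 208 in frozen embryos on replicates 1 and 3, against 341 and 284 in vitrified embryos. It was a dim probe, and frozen embryos had the lower signal on both of these arrays, where they were in Cy5. On replicate 1, where the signal was 2.04-fold lower in frozen embryos, 2.32% of the named genes had a lower ratio. On replicate 2, 73.9% of them did. The mean was -0.42 ± 0.62 (SD, n = 3), with a 95% interval of -1.05 to 0.21. It was -0.11 without replicate 1, where ACAT2 was lower (-0.26).

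**Figure D1:**
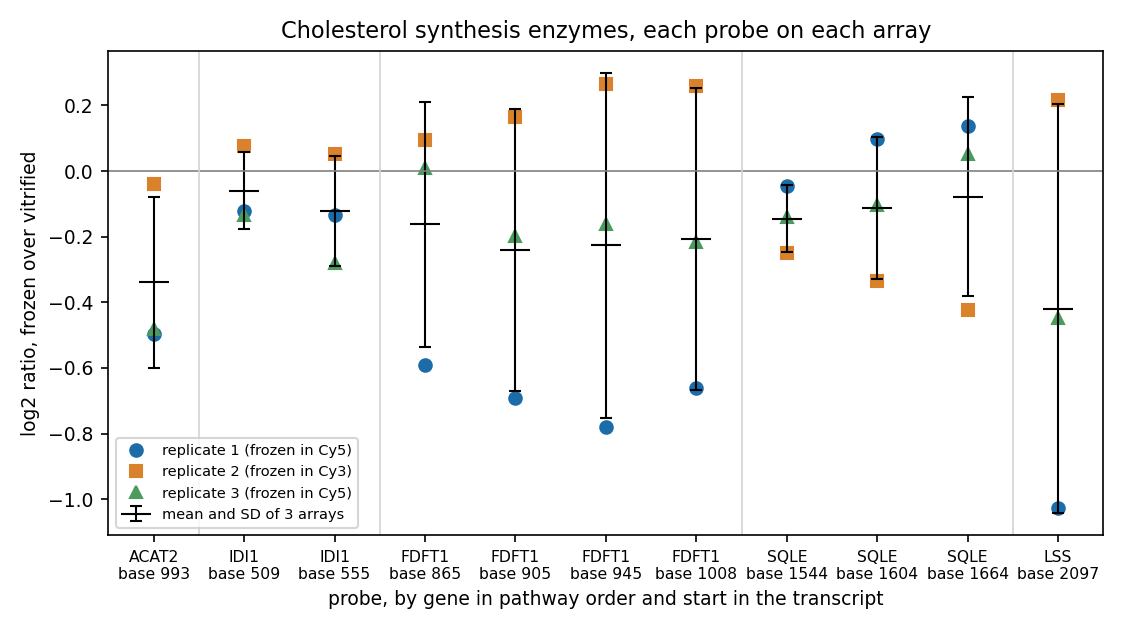
Log2 ratio of frozen over vitrified embryos (vertical axis) for each of the 11 probes, grouped by gene in pathway order and by start in the transcript. Symbols are the 3 arrays, and the black bar is their mean with the SD. Replicate 2 (squares) is the highest array for ACAT2, IDI1, FDFT1 and LSS and the lowest for SQLE, with its column as read.

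**Figure D2:**
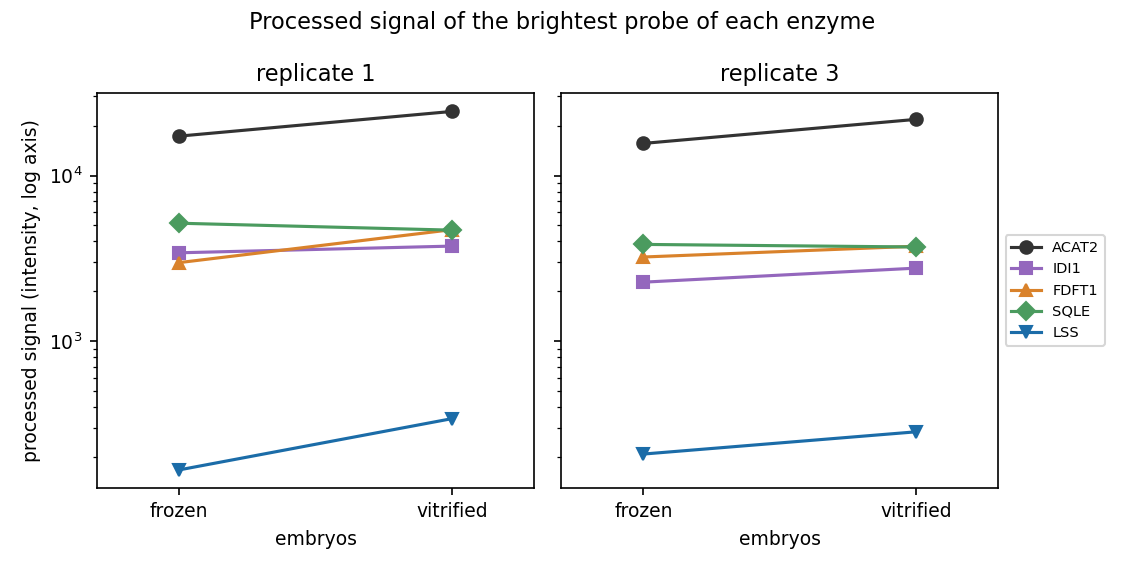
Processed signal (intensity, log axis) of the brightest probe of each enzyme in frozen and vitrified embryos on replicates 1 and 3, whose scanner files were used. ACAT2, IDI1, FDFT1 and LSS slope up from frozen to vitrified on both arrays, while SQLE slopes slightly down. Signals of different probes are not comparable with each other.

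Taking the listed enzymes as a group, 5 of 5 had a mean below 0, against 52.9% of all named genes. Their median was -0.21, against -0.01 over all named genes. By array the median was -0.50, 0.05 and -0.28 on replicates 1, 2 and 3, where all named genes had -0.08, 0.04 and 0.02. On replicate 1, 4 of 5 were below 0 (58.7% of all named genes), on replicate 2, 2 of 5 (42.8%), and on replicate 3, 4 of 5 (46.5%). Below 0 on all 3 arrays was 1 of 5, against 11.6% of all named genes. With the sign of replicate 2 turned, 4 of 5 had a mean below 0, against 58.8% of all named genes, and the group's median was -0.31. On replicate 2 both the count and the median were close to those of all named genes.

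No listed enzyme passed the test. With limma and Benjamini-Hochberg adjustment over 22839 probes, 0 of the 5 had an adjusted p under 0.05, and 0% of all probes did. At an unadjusted p under 0.05 the count was again 0 of 5, against 4.47% of all probes, 2.62% lower and 1.84% higher in frozen embryos. The intervals above still include differences of 0.47 or more below 0 for each of the 5 genes. A difference of that size was thus not excluded with 3 arrays. An exact sign-flip test over 3 arrays cannot go below p = 0.25 (2-sided). Leaving out replicate 1 raised the number of probes that passed to 796 (3.49%), and 0 of the listed enzymes were among them.

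The rest of the pathway was taken from a list of 16 further enzymes, of which 12 were measured. Of these, 9 had a mean below 0 and 3 above it, with a median of -0.07. None passed the test (limma, smallest adjusted p = 0.92). MSMO1, a methyl oxidase that trims lanosterol, had -0.38, 0.05 and -0.38 on replicates 1, 2 and 3, with a mean of -0.24 ± 0.25. HSD17B7, which reduces a ketone during that trimming, had -0.47, 0.12 and -0.20, and its 4 probes had means between -0.20 and -0.14. ERG28, a scaffold of the same complex, had -0.29, 0.01 and -0.17. All 3 genes were below 0 on replicates 1 and 3 and above it on replicate 2.

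In the mevalonate part, the mevalonate kinase MVK had -0.66, 0.18 and -0.05 on replicates 1, 2 and 3, and PMVK, the next kinase, had -0.20, 0.53 and -0.94. PMVK had a mean of -0.20 ± 0.73 (SD, n = 3) from 1 probe, and the SD was 0.37 with the sign of replicate 2 turned. Both kinases were highest on replicate 2.

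Among the late steps, EBP, a sterol isomerase, had -0.61, 0.42 and -0.07 on replicates 1, 2 and 3. LBR, a sterol reductase of the nuclear envelope, had -0.28, 0.40 and 0.27. CYP51A1, which removes a methyl group from lanosterol, had 0.37, -0.06 and -0.0012. SC5D, the desaturase near the end, had 0.21, -0.22 and -0.13. The files describe the SC5D probes as a sterol-C4-methyl oxidase-like gene, and the name comes from the gene identifier in the current RefSeq table. These late enzymes had no common direction, and their means lay between -0.09 and 0.13. If the column of replicate 2 is turned, LBR had -0.14 and SC5D 0.10, each on the other side of 0.

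ACAT1 was the exception. This mitochondrial thiolase, which serves ketone bodies and isoleucine breakdown more than sterols, was above 0 on each array, with 0.39, 0.51 and 0.39 on replicates 1, 2 and 3. Its mean was 0.43 ± 0.07 (SD, n = 3), or 1.35-fold higher after slow freezing (limma, unadjusted p = 0.018, adjusted p = 0.92). It was the only one of the 17 measured enzymes with an unadjusted p under 0.05, against 1.84% of all probes in that direction. The 3 probes named ACAT1 had means between -0.08 and 0.43 and come from different gene records, so the name is uncertain for part of them. With the sign of replicate 2 turned the mean was 0.091.

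**Figure D3:**
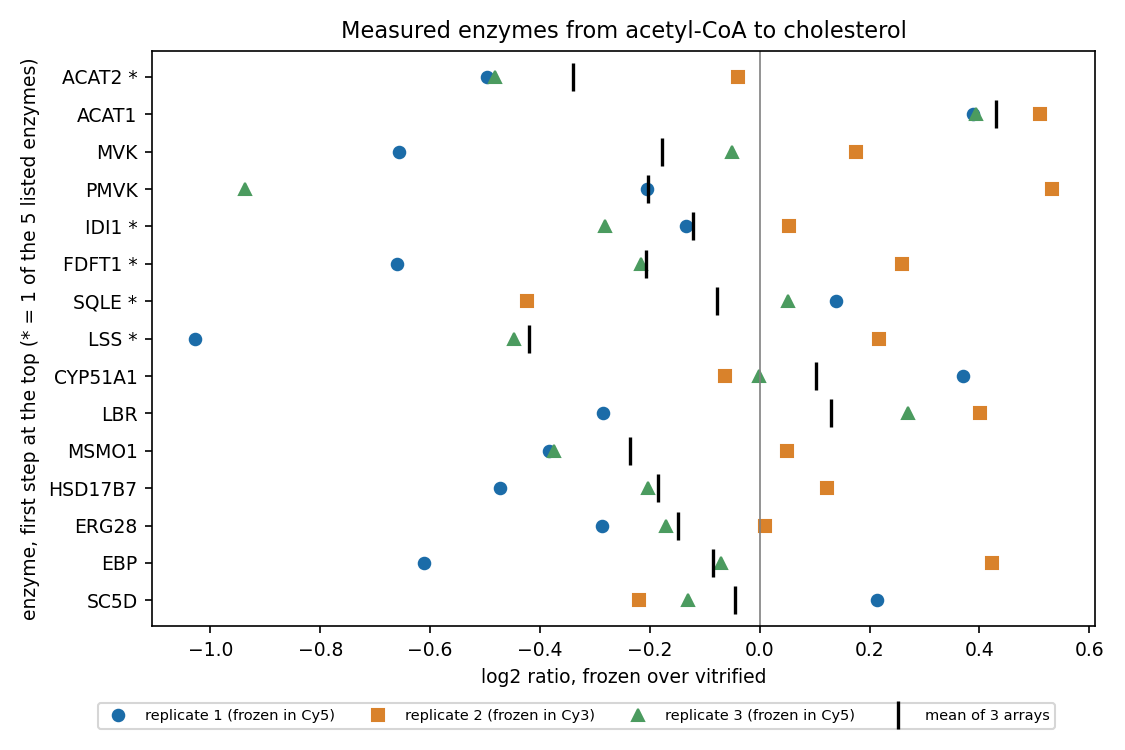
Log2 ratio of frozen over vitrified embryos (horizontal axis) for 15 of the 17 measured enzymes from acetyl-CoA (top) to cholesterol (bottom), by the brightest probe of each gene. Symbols are the 3 arrays, the black tick is their mean, and asterisks mark the 5 listed enzymes. In 12 of the 15 genes replicate 2 (squares) is the highest array, and in 8 of the 15 if its sign is turned.

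Of the 17 enzymes, 14 had a mean below 0 (12 with the sign of replicate 2 turned), and 10 were below 0 on replicates 1 and 3 and above 0 on replicate 2, against 15.4% of all named genes for this pattern. Among the 5 listed enzymes these were IDI1, FDFT1 and LSS, and SQLE alone showed the opposite pattern. Replicate 2 was the highest array for 13 of the 17, against 40.8% of all named genes, and for 8 of the 17, against 28.5%, if its sign is turned. Replicate 2 is also the array with the dyes exchanged, so these 10 genes were lower in the Cy5 channel on every array. If its column ran the other way, the same 10 genes would lie below 0 on all 3 arrays. With dye orientation as a covariate the median was -0.16 for the listed enzymes and -0.02 for the 12 others, and 0 probes passed (limma). The part of the dye in these values cannot be told apart from the other differences of replicate 2, the only array of its orientation.

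Replicate 1 held the lowest value of 12 of the 17 enzymes, against 50.5% of all named genes, and of 9 of the 17, against 40.6%, with the sign of replicate 2 turned. It differed from the others in further measures. Its ratios had an SD of 0.47 over all probes, against 0.34 and 0.35 on replicates 2 and 3. The ratio at the probe nearest the 3' end exceeded that at the probe nearest the 5' end by a median of 0.24 on replicate 1, against -0.13 and -0.06 on replicates 2 and 3, over 213 transcripts that had probes 500 or more bases from each other. The markers of the trophoblast, the outer layer of the blastocyst, had a median of -0.39 on replicate 1 and 0.32 and 0.40 on replicates 2 and 3 (4 of 7 measured). Their summed signal was 13578 and 20753 in frozen embryos on replicates 1 and 3, against 21374 and 20750.4 in vitrified embryos. Most of each sum was KRT8, with 11081 and 17298 in frozen embryos against 18501 and 18495 in vitrified embryos. On replicate 3 KRT8 had a log2 ratio of -0.10, while GATA3, TFAP2C and ELF3 had 0.76, 0.36 and 0.43. Hypoblast markers, of the layer lining the cavity, had medians of 0.016, -0.86 and -1.41 (6 of 9 measured), with sums of 1782 and 1528 in frozen embryos against 1444 and 4720.0 in vitrified embryos. On replicate 1 they split, with GATA4, CER1 and APOB at -0.495, -0.59 and -0.27 and APOA1, RBP4 and COL4A1 at 0.51, 0.66 and 0.30. All 6 were below 0 on replicates 2 and 3. Most of the vitrified sum on replicate 3 was APOA1 and RBP4 (1644 and 1549). Epiblast markers had -0.75, -0.06 and -0.63 (3 of 5 measured), with sums of 8038 and 6498 in frozen embryos against 12014 and 12240.2 in vitrified embryos. POU5F1, a defining epiblast factor, had signals of 5319 and 3154 in frozen embryos against 8962 and 9711 in vitrified embryos. DPPA5, another epiblast marker, had 2677 and 3312.5 in frozen embryos against 2966 and 2480.1 in vitrified embryos, so it did not share the direction of POU5F1 on replicate 3. Markers of the uterus (2 of 5 measured) summed to 601.5 and 175 in frozen embryos against 942.5 and 196 in vitrified embryos. The blood marker S100A9 (1 of 5 measured) had 165.5 and 233 in frozen embryos against 114 and 196 in vitrified embryos. The lowest signal of any measured marker was 31.7. Only probes in the deposited value table counted as measured, and all of these were well above background, so none could be at 0. NANOG, SOX2, CDX2, GATA6 and SOX17 had no value here. The medians of the epiblast markers and of the listed enzymes put the arrays in the same order. Of the single epiblast markers only ETV4, a dim probe, had that order (-1.04, -0.06 and -0.63 on replicates 1, 2 and 3). POU5F1 was lowest on replicate 3 (-1.62), and DPPA5 was highest there (0.42). The part of these measures in the enzyme values was not tested.

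Genes beside the pathway were grouped by role. Among 7 measured genes of sterol sensing, 4 were above 0 and 3 below, with a median of 0.13, and it was -0.14 with the sign of replicate 2 turned. None passed with all 3 arrays. SREBF1, the SREBP1 gene, had -0.55, -0.23 and -0.19 on replicates 1, 2 and 3, and INSIG2, which retains SREBPs in the endoplasmic reticulum, had 0.06, 0.14 and 0.30. SREBF2, the SREBP2 gene, named after its values were seen, had -0.83, 0.14 and 0.18. It rests on 1 dim probe (signals between 62 and 111). SREBF2 was thus below 0 on replicate 1 alone, with the column of replicate 2 as read. Replicate 1 was also the lowest array for 50.5% of all named genes, and SQLE, CYP51A1 and SC5D were highest there.

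For cholesterol uptake and transport, of 10 measured genes 7 were above 0 and 3 below, with a median of 0.01 and 0 that passed. LRP8, a lipoprotein receptor, had a mean of 0.22 ± 0.19, SCARB1, the receptor for high-density lipoprotein, 0.18 ± 0.21, and STARD4, a sterol carrier, -0.25 ± 0.47 (SD, n = 3). With the sign of replicate 2 turned SCARB1 had -0.050 and the median of the list -0.057.

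Of the genes of storage, efflux and use 4 of 10 were measured, with 3 above 0 and 1 below. ABCA1, which exports cholesterol from cells, had -0.17, -0.86 and -0.92 on replicates 1, 2 and 3. Its mean was -0.65 ± 0.42 (SD, n = 3), or 1.57-fold lower after slow freezing, from 1 probe (limma, unadjusted p = 0.017, adjusted p = 0.92). The probe was dim (signals between 42 and 80). Without replicate 1 ABCA1 passed (limma, adjusted p = 0.014), as did 3.49% of all probes. With the sign of replicate 2 turned the mean of ABCA1 was -0.079. CYP27A1, a sterol hydroxylase, had 0.25 ± 0.41 and STAR, which brings cholesterol into mitochondria, 0.13 ± 0.36 (SD, n = 3). With that sign turned CYP27A1 had -0.12 and the list's median was -0.044, against 0.11 as read.

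The isoprenoid branches had 8 of 12 genes measured, 6 below 0 and 2 above, with a median of -0.10. COQ2, an enzyme of ubiquinone synthesis, had -0.14, -0.45 and -0.52 on replicates 1, 2 and 3, and its 5 probes had means between -0.37 and -0.30 (limma for the brightest, unadjusted p = 0.048, adjusted p = 0.9999). DHDDS, which builds dolichol, had a mean of -0.32 ± 0.52 and PGGT1B, a subunit of a protein prenyltransferase, -0.12 ± 0.07 (SD, n = 3). Acetyl-CoA and fatty acid synthesis had 5 of 9 genes measured, 4 below 0 and 1 above. ME1, a source of NADPH, had -0.47 ± 0.27, but its 2 probes had means of -0.47 and 0.01. ACACA, which commits acetyl-CoA to fatty acids, had -0.29 ± 0.38 and FADS2, a desaturase, 0.20 ± 0.13 (SD, n = 3). None of these passed with all 3 arrays.

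**Figure D4:**
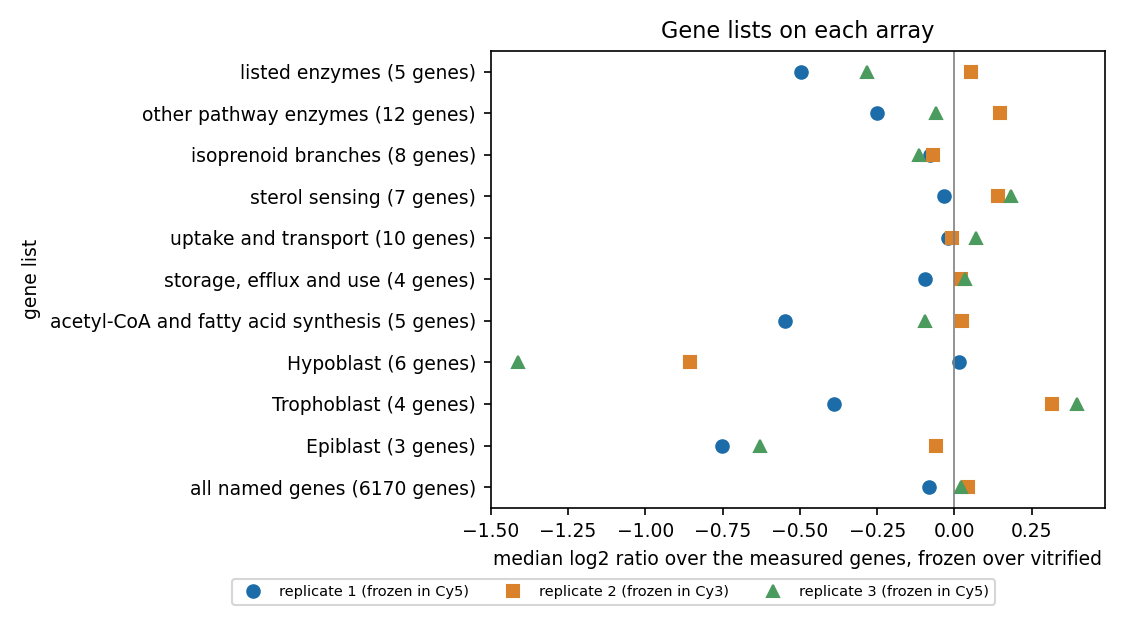
Median log2 ratio of frozen over vitrified embryos (horizontal axis) over the measured genes of each list, on each array (symbols), with the number of genes in brackets. The listed enzymes have -0.50, 0.05 and -0.28 on replicates 1, 2 and 3, while all named genes stay near 0.

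The 5 other named genes whose 3 ratios lay nearest to the median profile of the listed enzymes were NDST2, ACTN3, ASB7, EIF4G2 and ZNF513. Likeness was the Euclidean distance over 3 arrays, which was 0.014 for NDST2 and 0.064 for ZNF513. Within a distance of 0.1 there were 18 of 6165 genes. These distances rest on so few arrays that they are given as a description.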

How the data were processed

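Per the labels, total RNA (100 ng per sample) was labelled with Cy3 or Cy5 and hybridised to 3 arrays. Per the submitters' processing notes and file headers, the scans were quantified by Agilent Feature Extraction (version 10.10.1.1). The deposited scanner files of replicates 1 and 3 give intensity per channel (background-subtracted, detrended and dye-normalized, per the file headers) and a log10 ratio with its error. The table deposited by the authors holds log2 ratios of 22839 non-control probes, 52.4% of the array; the sources used here do not state its filter. On replicates 1 and 3 the table differed from the scanner's red over green ratio by at most 2.8e-06. Column medians were -0.015, 0.021 and 0.017, so the centring was kept. The scale was also kept as deposited, with SDs of 0.47, 0.34 and 0.35 over all probes, and no alternative rescaled the arrays. By the scanner flags of replicates 1 and 3, each of these probes was well above background in either colour, and 0 were saturated. The number of arrays limits the precision.

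Probes were named through the current RefSeq table of the rabbit by symbol, transcript or gene identifier, which named 6170 genes. SREBF1 was named from the words of its description. A gene was represented by its probe with the brightest mean log2 signal. Each log2 ratio was tested against 0 over 3 arrays with limma 3.58.1 in R 4.3.3, with Benjamini-Hochberg adjustment over all probes and a threshold of 0.05. The fit was tested on simulated data. Alternatives changed the sign of replicate 2, the prior, a dye covariate, centring, the probe per gene, the filter, the normalization (normexp with offset 50, and loess) and the arrays used. The listed enzymes and the other gene lists were chosen with earlier results of these data known. Measured pathway enzymes are named, and from the other lists up to 3 genes with the smallest unadjusted p; a few genes are not reported here but stay in the counts. Spread between arrays holds embryo and technical variation together.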

Additional observations from a re-analysis of the deposited data

How the results depend on the processing

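The 5 enzymes were recomputed under 12 alternatives. The changed prior and the filter on dim probes cannot move their means, and the processed scanner signals repeat the values without replicate 2. ACAT2, IDI1 and LSS stayed below 0 under every alternative run, with ranges of -0.54 to -0.26, -0.24 to -0.040 and -0.74 to -0.11. LSS did not stay the lowest of the 5. On replicates 1 and 3 it had -0.74 from processed signals but -0.31 with normexp and loess, where ACAT2 had -0.54. ACAT2 was also lower than LSS without replicate 1 (-0.26 against -0.11) and, slightly, with the dye covariate (-0.264 against -0.260). SQLE turned above 0 with the sign of replicate 2 turned (0.20), on the scanner files of replicates 1 and 3 (0.095, also without a filter, and 0.046 with normexp and loess) and without replicate 2 (0.095). FDFT1 turned above 0 without replicate 1 (0.021). The median over the listed enzymes stayed between -0.44 and -0.11, and that over the other 12 enzymes between -0.17 and 0.015. The number of enzymes below 0 on all arrays, 1 of 5, became 3 when the sign of replicate 2 was turned. ACAT2 was then not among them. On the scanner files of replicates 1 and 3, where fewer arrays have to share a sign, the number was 4 under all 3 settings. It was between 1 and 4 when 1 replicate was left out (4 without replicate 2), where SQLE ran between -0.19 and 0.095 and FDFT1 between -0.44 and 0.021. The number of probes that passed was between 0 and 796 when 1 replicate was left out, 796 being without replicate 1, and 0 under the other alternatives. The number of listed enzymes that passed was 0 under each of the 11 alternatives with a test. The cause was not tested. Each log2 ratio pairs a frozen with a vitrified sample within its array, so the test against 0 is itself paired. No paired analysis was possible because each replicate number belongs to 1 array, other than the pairing within arrays.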

Other observations

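The probe described as farnesyl diphosphate synthase, whose gene identifier now names RUSC1, had log2 ratios of frozen over vitrified embryos of -0.41, -0.02 and -0.09 on replicates 1, 2 and 3.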
